A study of Mus musculus with 10 samples.

Results

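The 9 genes described here encode ion channels and ion pumps that set the membrane voltage and the calcium signal of aldosterone-producing cells. They are the two-pore potassium channel genes Kcnk3, Kcnk9 and Kcnk2, the inward rectifier Kcnj5, the calcium channels Cacna1d and Cacna1h, the pump genes Atp1b1 and Atp2b3, and the chloride channel Clcn2. Members were taken from a fixed list of names, and each is represented by its probe that is annotated to that gene symbol alone. All 9 listed genes were measured, each by 1 such probe, among 19661 genes and 25664 analysed probes.

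Whole adrenal gland RNA of 10 mice was labelled with an Affymetrix reagent and measured on 10 arrays, each from its own animal. Of the mice 5 were Crem-/- (KO), without both copies of the gene for the cAMP responsive element modulator, and 5 were wild type (WT). Both groups had a 129Pas x C57Bl/J background and were untreated, and were killed at 8 weeks of age at 0 h circadian time, when the lights came on. How the gene was disrupted and the sex of the animals were not used here. Each level is a log2 value from RMA, so a step of 1 is a doubling of the hybridisation signal, and every difference is KO minus WT. By label there were 4 batches. Batch 1 holds KO 1, KO 2 and WT 1, batch 2 holds KO 3 and KO 4, batch 3 holds KO 5, WT 2, WT 3 and WT 4, and batch 4 holds WT 5. The labels do not say what a batch is.

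Aldosterone is made in the zona glomerulosa, the outermost layer of the adrenal cortex. At rest these cells are held at a very negative voltage by potassium channels, chiefly the acid-sensitive two-pore channels TASK-1 (Kcnk3) and TASK-3 (Kcnk9). Angiotensin II or a rise in blood potassium closes or weakens this potassium current, voltage-gated calcium channels open, and calcium signalling turns on aldosterone synthase (Cyp11b2). Mutations of several of these genes, among them those for KCNJ5, CACNA1D, CACNA1H, ATP2B3 and CLCN2, are known in human primary aldosteronism. Several of the channels also act in chromaffin cells of the medulla and in neurons, so whole-gland RNA holds signal from more than 1 cell type.

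The arrays held the defining transcripts of both parts of the gland. Cyp11b1 (11-beta-hydroxylase) lay between 13.50 and 14.10, Cyp11b2 between 10.38 and 12.36, and Th (tyrosine hydroxylase of the medulla) between 11.34 and 12.72 on 9 arrays, but at 8.40 on KO 1. Cyp11b1 and Cyp11b2 are near-identical paralogs, and their probes may share signal. KO 1 and KO 3 stood apart in markers of other tissues. Adipoq (adiponectin, of fat cells) was 13.34 and 13.001 on these arrays and at most 11.46 on the others, Ucp1 (of brown fat) was 12.16 and 12.64 with WT 1 next at 11.74, and Alb (albumin, of liver) reached 14.13 (KO 1) and 11.29 (KO 3) with no other array above 10.19. KO 2, KO 5 and WT 3 lay apart on the first principal component of all probes, at 69.4, 61.0 and 60.7, with WT 4 at 17.4 and the remaining 6 arrays between -54.0 and -23.7. Crem itself was 7.38, 7.97, 6.86, 6.84 and 7.77 on KO 1 to KO 5 and 7.45, 7.23, 8.14, 7.62 and 7.27 on WT 1 to WT 5, so the groups overlapped and the targeted gene does not check the labels. The part of the Crem transcript that this probe covers was not analysed here. In whole-gland RNA, fewer cells of a type and less RNA per cell cannot be told apart.

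Because CREM binds the cAMP response element, TGACGTCA, the promoters of the members were searched for it. RefSeq promoter windows of 300 bases (250 before to 50 after each transcript start, build GRCm38.p6) were at hand for 5 members, Kcnk2 with 4 starts, Cacna1d with 2, and Atp1b1, Kcnj5 and Clcn2 with 1 each. No window was at hand for Kcnk3, Kcnk9, Cacna1h and Atp2b3, so these were not searched. No member window held the full element on either strand, and 1.79% of all 32851 windows did. The shorter form TGACG, which is also part of the full element, was in 1 of the 9 member windows and in 20.8% of all windows, searched on both strands. The single match lay in the window of Clcn2, on the opposite strand, and began 207 bases before the transcript start. The stretch around it is shown because it is the only such match in the 9 member windows, with the matched letters in capitals (GRCm38.p6, chr16:20716791-20716886, minus strand, 5′ to 3′).
Clcn2 promoter: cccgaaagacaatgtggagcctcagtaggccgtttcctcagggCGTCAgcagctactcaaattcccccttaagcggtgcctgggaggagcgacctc
A match describes the letters of this window and not a binding site, and the windows without a match say nothing about sites elsewhere.

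The potassium channel transcripts Kcnk9 and Kcnk3 gave the strongest signals of the group, and Kcnj5 gave the weakest. Averaged over the 10 arrays, the log2 level was 11.77 ± 0.30 (SD, n = 10) for Kcnk9, 10.85 ± 0.53 for Kcnk3, 9.97 ± 0.38 for Atp1b1, 9.94 ± 0.50 for Atp2b3 and 9.80 ± 0.45 for Cacna1h. It was 8.99 ± 0.59 for Kcnk2, 8.72 ± 0.25 for Clcn2, 8.22 ± 0.41 for Cacna1d and 6.20 ± 0.17 for Kcnj5. Probes of different genes bind with different strength, so this is an order of hybridisation signal and not of transcript number. Kcnk9 was above Kcnk3 on 10 of 10 arrays, by 0.92 ± 0.55 (SD of the difference within arrays). Cacna1h was above Kcnk2 on 10 of 10 arrays, and Cacna1d was above Kcnj5 on 10 of 10, by 2.01 ± 0.49. In 3 neighbouring pairs the difference within arrays was smaller than its SD, namely Atp1b1 and Atp2b3 (0.03 ± 0.37, in this order on 5 of 10 arrays), Atp2b3 and Cacna1h (0.13 ± 0.39, 6 of 10), and Kcnk2 and Clcn2 (0.27 ± 0.49, 7 of 10). Those neighbours did not differ beyond their spread.

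**Figure D1:**
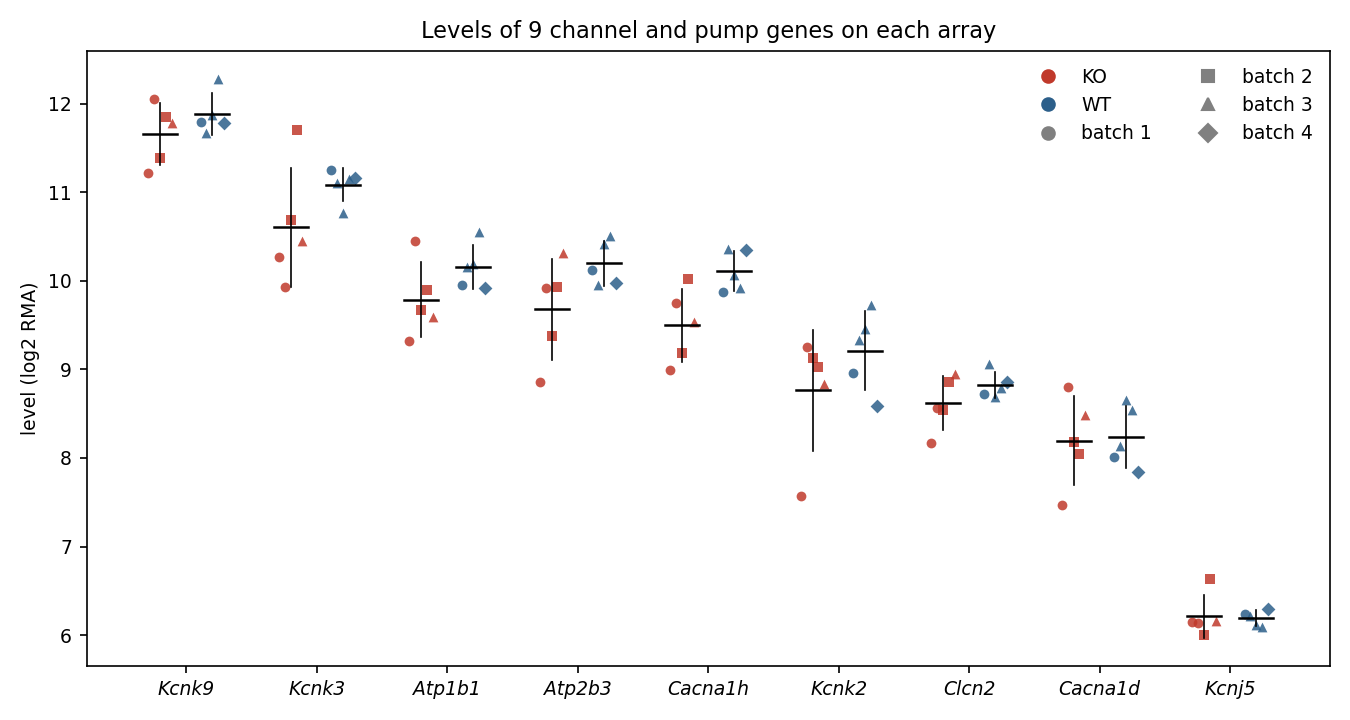
Level (log2 RMA) of each gene on each array, with KO in red and WT in blue, the batch given by the shape of the point, and the mean ± SD of 5 arrays as black lines. Kcnk9 is highest and Kcnj5 lowest on every array, KO and WT points overlap in all 9 genes, and KO 1 is the lowest point in 7 of them.

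Against all genes, 8 of the 9 members lay above the median level of 7.56. Kcnk9 was higher than 98.6% of genes, Kcnk3 than 95.6%, Atp1b1 than 89.3%, Atp2b3 than 89.0% and Cacna1h than 87.6%. Kcnk2, Clcn2 and Cacna1d were higher than 76.0%, 71.4% and 62.4% of genes. Kcnj5 was higher than 24.5% of genes. No background level was used here, so 1024 olfactory receptor genes, whose known site of use is the nose, served as a reference. Their median was 4.88, and 95% of them lay at or below 6.48. Of these genes, 0 reached the level of Kcnk9, Kcnk3, Atp1b1, Atp2b3 or Cacna1h, and 2 reached that of Kcnk2, Clcn2 and Cacna1d. The level of Kcnj5 was reached by 93 of them (9.08%), and whether Kcnj5 is expressed in these glands cannot be judged from its probe.

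**Figure D2:**
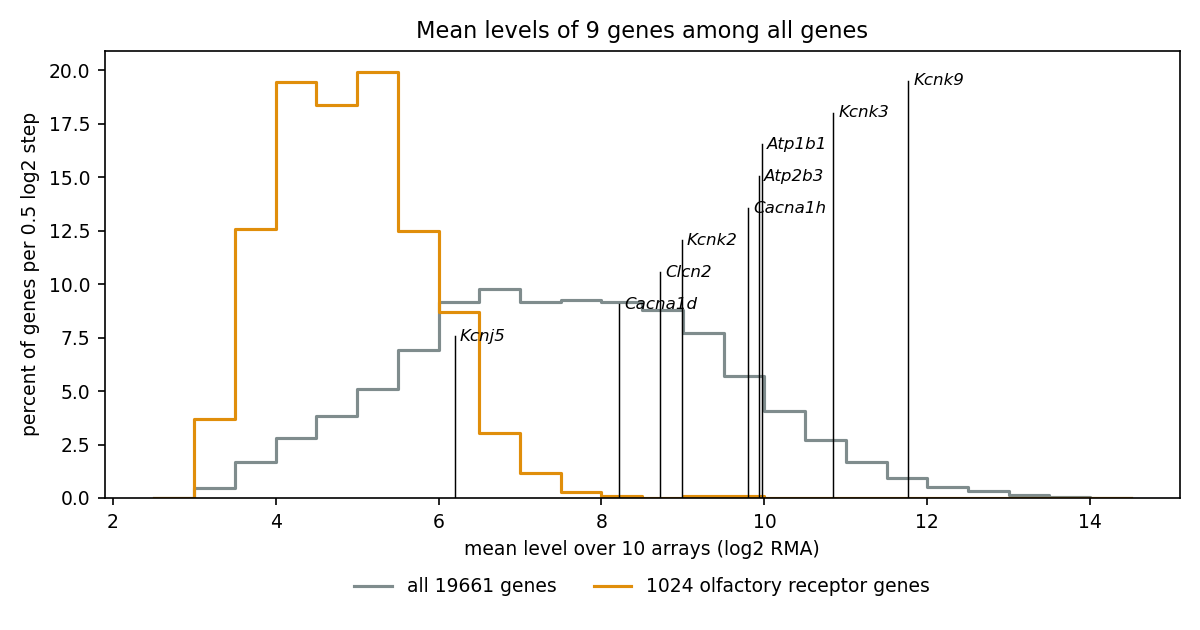
Percent of genes in each step of 0.5 on the log2 scale, for all genes in grey and olfactory receptor genes in orange, with a vertical line at the mean level of each member over 10 arrays. The height of a line carries no value. Kcnj5 at 6.20 lies below 6.48, the level that 95% of the olfactory receptor genes did not exceed. The other 8 genes lie above the median of all genes.

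The main comparison asks whether transcripts of these channels and pumps differ between the KO and WT glands. None of the 9 genes passed the threshold. In the limma fit over all 25664 probes, 0 of 9 members had an adjusted p under 0.05 (0% of all probes, and an adjusted p of 0.999 for each member). At an unadjusted p under 0.05 there was 1 of 9 members, Cacna1h, against 3.42% of all probes in either direction and 2.5% lower in KO. The KO mean was the lower one in 8 of 9 members, and in 53.2% of all genes. The median difference was -0.37 over the members and -0.01 over all genes. None of the members had levels that did not overlap between KO and WT, a pattern seen in 0.682% of all probes.

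Cacna1h encodes Cav3.2, a T-type calcium channel that opens at weak depolarisation and passes calcium in glomerulosa cells. Its level was 8.996, 9.75, 9.18, 10.02 and 9.53 on KO 1 to KO 5, and 9.88, 10.36, 10.06, 9.91 and 10.34 on WT 1 to WT 5. On 4 of 5 KO arrays it lay below the lowest WT array, and KO 4 lay among the WT arrays. KO arrays averaged 9.50 ± 0.41 and WT arrays 10.11 ± 0.23 (SD, n = 5 for both), a difference of -0.62 (standard error 0.20, 95% interval -1.05 to -0.18 before adjustment), or a 1.53-fold higher linear signal in WT. The two-sided exact permutation test gave p = 0.0238, where the smallest possible p is 0.00794, and limma gave an unadjusted p of 0.0105 and an adjusted p of 0.999. The difference was -0.54 with batch as a fixed block (limma unadjusted p = 0.0921) and -0.60 with batch as a random block (limma unadjusted p = 0.0143). The unadjusted call was thus lost with the fixed block and kept with the random block. Within batch 1 the difference was -0.51 and within batch 3 it was -0.58, each with a lone array of 1 genotype. The 2 lowest arrays, KO 1 and KO 3, were also the 2 arrays with the highest adipocyte marker level and the lowest steroidogenic cortex marker level. Without both arrays the difference was -0.34 (limma unadjusted p = 0.0697).

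Cacna1d encodes Cav1.3, an L-type calcium channel that opens at lower voltage than its relatives. Its level was 7.46, 8.80, 8.18, 8.04 and 8.49 on KO 1 to KO 5 and 8.01, 8.14, 8.65, 8.54 and 7.84 on WT 1 to WT 5. Both the lowest and the highest array were KO arrays. The difference was -0.04 (standard error 0.25, 95% interval -0.60 to 0.51), and it was 0.14 without KO 1 and 0.08 with batch as a fixed block. The 4 highest arrays of Cacna1d were KO 2, WT 3, WT 4 and KO 5, at 8.49 to 8.80 against at most 8.18 on the others, and these are the 4 arrays with a positive score on the first component. Crem was also highest on these 4 arrays, at 7.62 to 8.14 against at most 7.45. The first component held 53.8% of the variance of all probes, and a link between Crem and Cacna1d was not tested.

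Kcnk3 encodes TASK-1, and its spread between KO arrays was the widest but that of Kcnk2. Its level was 10.26, 9.93, 10.69, 11.70 and 10.44 on KO 1 to KO 5, and 11.25, 11.10, 10.77, 11.14 and 11.16 on WT 1 to WT 5. On 4 of 5 KO arrays it lay below the lowest WT array, while KO 4 was the highest of all 10. KO arrays averaged 10.61 ± 0.67 and WT arrays 11.09 ± 0.18 (SD, n = 5 for both). The difference of -0.48 (standard error 0.28, 95% interval -1.10 to 0.14) did not pass the exact permutation test (two-sided p = 0.167). It was -0.76 without KO 4 (limma unadjusted p = 0.00110, adjusted p = 0.832) and -0.31 without KO 2. It was -0.84 with batch as a fixed block (limma unadjusted p = 0.0211, adjusted p = 0.582), where Kcnk3 was the 1 of 9 members at an unadjusted p under 0.05 and 7.18% of all probes were. Within batch 1 it was -1.15 and within batch 3 it was -0.56 (limma unadjusted p = 0.0377 and 0.0743). The blocked difference comes from batches 1 and 3 alone, since KO 3, KO 4 and WT 5 share a batch with no array of the other genotype.

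Kcnk9 encodes TASK-3, the partner of TASK-1. Its level was 11.21, 12.05, 11.39, 11.85 and 11.79 on KO 1 to KO 5 and 11.80, 11.67, 11.87, 12.28 and 11.78 on WT 1 to WT 5. KO 1 and KO 3 lay below all other arrays. The difference was -0.22 (standard error 0.18, 95% interval -0.62 to 0.17), with -0.16 under a fixed batch block, -0.11 without KO 1, -0.12 without WT 4 and 0.01 without KO 1 and KO 3. Kcnk2 encodes TREK-1, a potassium channel that responds to stretch and lipids. Its level was 7.57, 9.25, 9.13, 9.03 and 8.84 on KO 1 to KO 5 and 8.96, 9.34, 9.46, 9.72 and 8.58 on WT 1 to WT 5. KO 1 lay below the other 9 arrays, and WT 5 was the lowest WT array. The difference of -0.45 (standard error 0.33, 95% interval -1.18 to 0.28) became -0.62 under a fixed batch block and -0.15 without KO 1.

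Kcnj5 encodes GIRK4, an inward rectifier potassium channel. Its level was 6.14, 6.14, 6.002, 6.64 and 6.15 on KO 1 to KO 5 and 6.24, 6.21, 6.11, 6.09 and 6.30 on WT 1 to WT 5. All arrays but KO 4 lay within 6.002 to 6.30. The difference was 0.02 (standard error 0.12, 95% interval -0.25 to 0.30), and it was -0.04 under a fixed batch block, -0.08 without KO 4 and -0.02 after a repeated quantile normalisation, so its direction was not stable.

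The pump genes had lower KO means without passing the test. Atp1b1 encodes the beta-1 subunit of the sodium-potassium pump, which restores the potassium gradient that the channels use. Its level was 9.32, 10.45, 9.67, 9.89 and 9.59 on KO 1 to KO 5 and 9.95, 10.16, 10.18, 10.55 and 9.92 on WT 1 to WT 5. On 4 of 5 KO arrays it lay below all WT arrays, with KO 2 above 4 of them. The difference was -0.37 (standard error 0.20, 95% interval -0.82 to 0.08, two-sided exact permutation p = 0.119). Batch 1 alone gave -0.07 and batch 3 alone -0.70. Atp2b3 encodes a plasma membrane calcium pump that carries calcium out of the cell. Its level was 8.86, 9.91, 9.38, 9.93 and 10.31 on KO 1 to KO 5 and 10.12, 9.95, 10.42, 10.51 and 9.97 on WT 1 to WT 5. The difference was -0.52 (standard error 0.25, 95% interval -1.08 to 0.04, two-sided exact permutation p = 0.0873). Batch 1 alone gave -0.74 and batch 3 alone 0.02, leaving out KO 1 gave -0.31, and leaving out KO 1 and KO 3 gave -0.14.

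Clcn2 encodes ClC-2, a chloride channel whose opening depolarises glomerulosa cells. Its level was 8.17, 8.57, 8.54, 8.86 and 8.95 on KO 1 to KO 5 and 8.72, 9.06, 8.69, 8.79 and 8.86 on WT 1 to WT 5. Clcn2 had the smallest range of the 8 members above the median gene, 0.88 between KO 1 and WT 2. The difference was -0.21 (standard error 0.15, 95% interval -0.54 to 0.12), and it was -0.096 without KO 1 and -0.11 under a fixed batch block. Batch 1 alone gave -0.35 and batch 3 alone 0.10, so the sign turned between them.

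**Figure D3:**
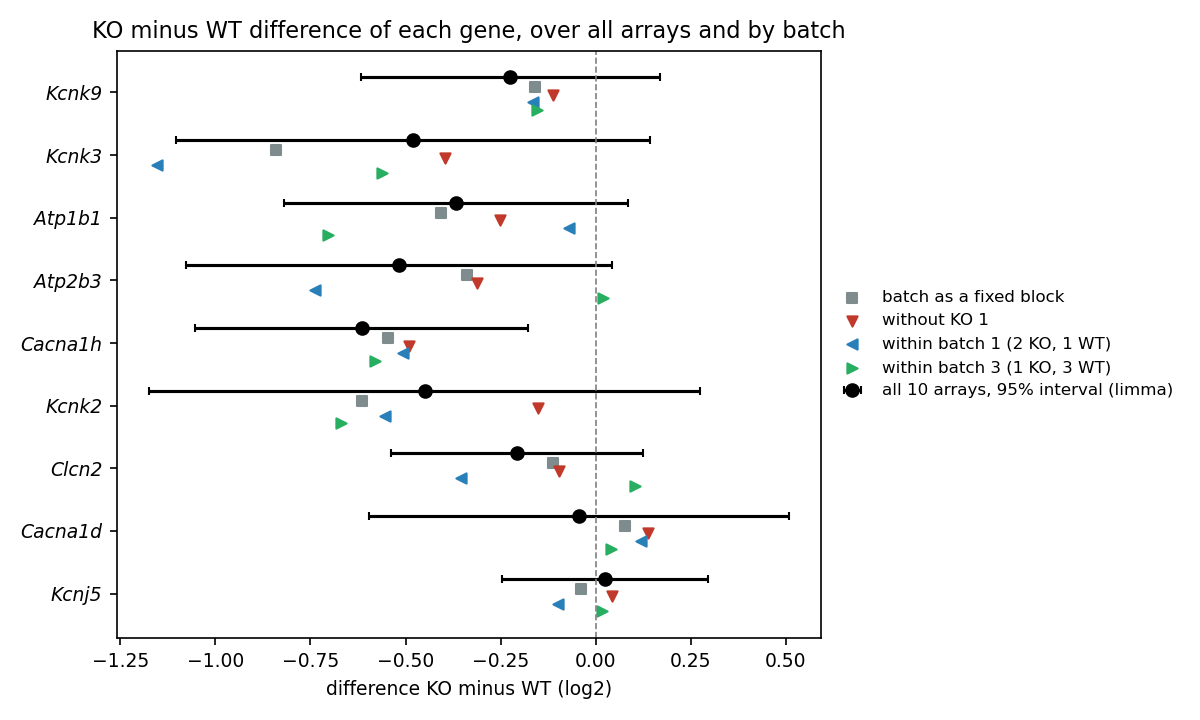
Difference KO minus WT (log2) of each gene over all 10 arrays with its 95% limma interval in black, and the same difference with batch as a block, without KO 1, within batch 1 and within batch 3. Of the 9 intervals, 8 include 0 and that of Cacna1h does not before adjustment, and for Atp2b3, Clcn2 and Kcnj5 the values within batches 1 and 3 lie on opposite sides of 0.

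The array KO 1 was the lowest of 10 for 7 of the 9 members, all but Kcnk3 and Kcnj5, and it was the lowest for 13.1% of all genes. Averaged over the 9 members, KO 1 stood at 8.67 and KO 3 at 9.13, while the other 8 arrays ranged from 9.34 to 9.73. WT 4, with the highest mean, was the highest array for 4 members (Kcnk9, Kcnk2, Atp1b1 and Atp2b3) and for 4.97% of all genes. On KO 1 the mean of 17 measured chromaffin and neuronal markers was 7.98, against 10.30 to 11.02 on the others. For 9 liver and pancreas markers the mean was 10.77 (KO 1) and 8.29 (KO 3), against 6.73 to 7.81. The mean of 11 adipocyte markers was 12.43 and 12.20 on these arrays, against 7.92 to 10.56. The mean of 9 steroidogenic cortex markers was 12.03 and 12.01, against 12.42 to 12.62, and the mean of 7 zona glomerulosa markers was 10.81 and 10.11, against 10.76 to 11.35. The KO mean was lower for 16 of 17 chromaffin markers (median difference -0.55), 9 of 9 cortex markers (-0.16) and 6 of 7 glomerulosa markers (-0.20), and higher for 11 of 11 adipocyte markers (0.53) and 8 of 9 liver and pancreas markers (1.24). With batch as a fixed block these medians were -1.17, -0.08, -0.12, 0.15 and 0.72. The pancreas genes of the last list did not share its median, with Cela2a at 0.11, Prss2 at 0.04 and Cpb1 at -0.14. Among all genes the KO mean was lower in 53.2%. On KO 2 to KO 5 the chromaffin marker mean was 10.75, 10.87, 10.94 and 10.30, against 10.35 to 11.02 on WT arrays. On KO 2, KO 4 and KO 5 the adipocyte marker mean was 8.50, 7.92 and 9.02, against 8.60 to 10.56 on WT arrays. The part of these tissues in the member differences was not tested. Without KO 1, 7 of 9 members had the lower mean in KO, against 50.8% of all probes, and the median difference of the members was -0.15. Without KO 1 and KO 3, 6 of 9 had, against 56.4% of all probes, and the median of the members was -0.14. At a limma unadjusted p under 0.05 there were then 0 members, against 693 of 25664 probes.

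**Figure D4:**
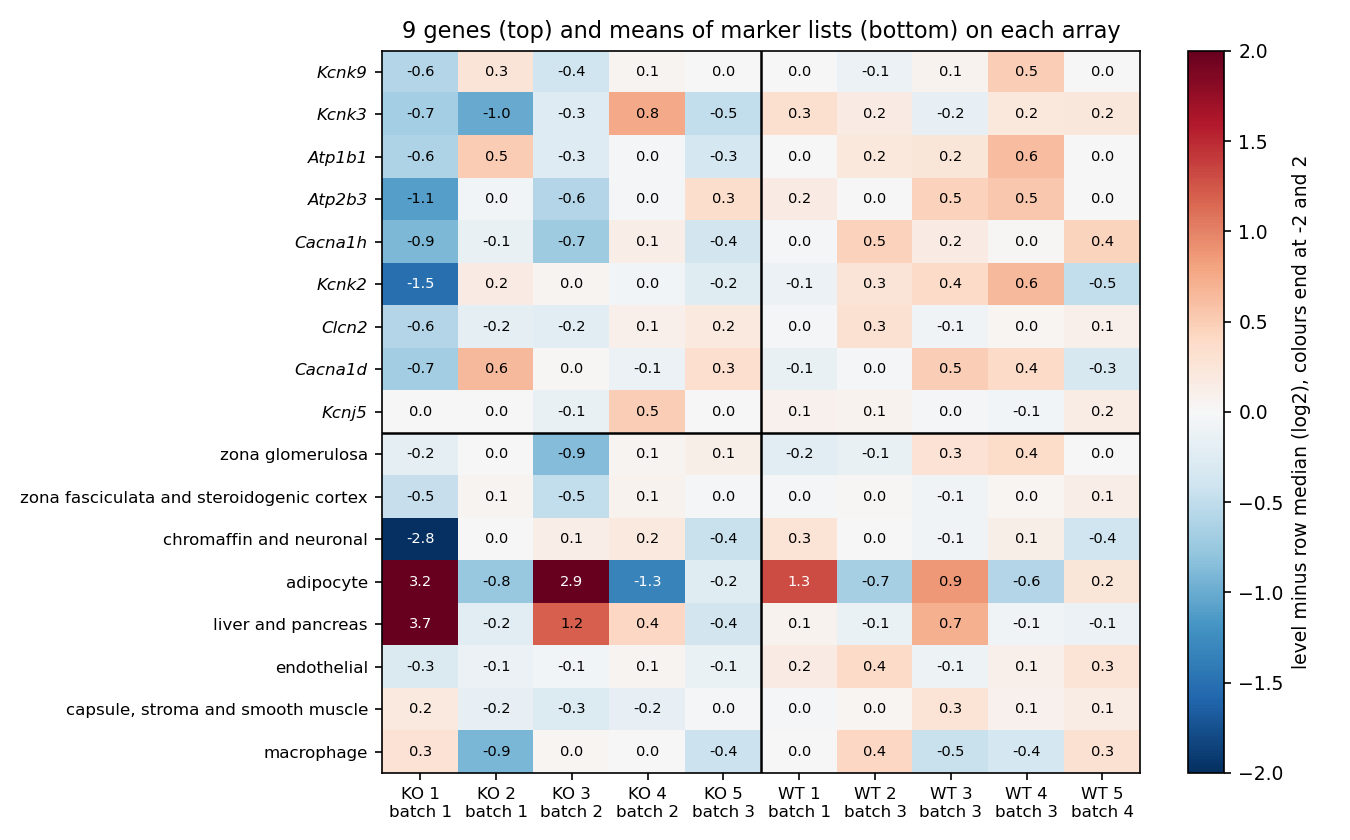
Level of each member (top) and mean level of each marker list (bottom) on each array, as the difference from the median of the row over 10 arrays (log2), with red above and blue below that median. KO 1 is below the median in every member, though only narrowly in Kcnj5 (6.144 against 6.149). It is the array with the lowest chromaffin marker mean (7.98) and the highest liver and adipocyte marker means (10.77 and 12.43).

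Of the markers of other cell types, those of endothelium lay between 9.69 and 10.04 on KO arrays and between 9.88 and 10.36 on WT arrays (10 measured, 10 with a lower KO mean, median difference -0.33). Capsule, stroma and smooth muscle markers lay between 9.31 and 9.77 on KO and between 9.53 and 9.86 on WT arrays (12 measured, 11 lower), and macrophage markers between 9.16 and 10.36 on KO and between 9.63 and 10.49 on WT arrays (10 measured, 9 lower). In each of these lists 0 genes passed the adjusted threshold, and their part in the member differences was not tested.

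The neighbouring channel and pump families were read from 7 lists of the same kinds of gene, with 2 more for the pathway itself. Of 141 listed genes 125 were measured, and 0 passed the adjusted threshold. At an unadjusted p under 0.05 there were 7 of 125 (5.6%), against 3.42% of all probes. Of the 125 genes, 73 (58.4%) had a lower KO mean, against 53.2% of all genes. The median difference was -0.03 over the 125 genes and -0.01 over all genes.

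Among the potassium channels, 11 other two-pore channels had a median difference of 0.06, with 4 of 11 lower in KO. Kcnk4 (TRAAK) had a difference of 0.23 and Kcnk1 (TWIK-1) of -0.72 (limma unadjusted p = 0.0244 and 0.0384). For Kcnk1 the KO arrays averaged 9.65 ± 0.68 and the WT arrays 10.37 ± 0.31 (SD, n = 5 for both). The other inward rectifiers had a median difference of 0.02 (14 measured), with Kcnj16 at 0.30 and Kcnj4 at -0.28 (0.028 and -0.47 under a fixed batch block). Calcium-activated and KCNQ channels had a median of -0.04 (16 measured, 11 lower), with Kcnq1 at -0.30 and the accessory subunit Kcne4 at -0.29.

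Other voltage-gated calcium channel subunits had a median difference of 0.03 (15 measured, 7 lower). Cacna2d3, an accessory subunit that helps bring the channel to the membrane, had a difference of -0.37 (limma unadjusted p = 0.0135) and Cacna1b, the N-type channel of neurons and chromaffin cells, of -0.24. Under a fixed batch block these were -0.22 and -0.51. Calcium pumps, exchangers and store channels had a median of -0.03 (19 measured, 14 lower), with Atp2a2 (the pump that refills the endoplasmic reticulum) at -0.16 and Atp2b2 at -0.22 (-0.076 and -0.46 under a fixed batch block). Of the sodium-potassium pump genes 11 were measured, with a median of -0.02. The other beta subunits Atp1b3 and Atp1b2 had differences of -0.29 and -0.57 (limma unadjusted p = 0.0176 and 0.0224), and Fxyd6, a regulator of the pump named after its values were seen, of -0.54 (unadjusted p = 0.0346). With batch as a fixed block these 3 were -0.10, -0.95 and -0.86. Other chloride channels and transporters had a median of -0.03 (10 measured, 5 lower), with Ano1, a calcium-activated chloride channel, at -0.37 (limma unadjusted p = 0.0426) and Clcn1 at 0.11.

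In the rest of the pathway, before and after the channels, genes of angiotensin and calcium signalling had a median difference of -0.13 (21 measured, 13 lower). Agtr1a, the angiotensin II receptor, had a difference of -0.38 (limma unadjusted p = 0.0520) and Agtrap, its associated protein, of -0.62. Of 8 measured genes of aldosterone synthesis 7 had a lower KO mean, with a median of -0.10, Star (cholesterol import) at -0.30 and Cyp11a1 (side chain cleavage) at -0.12. Under a fixed batch block Star was -0.086 and Cyp11a1 -0.13. Cyp11b2 averaged 11.67 ± 0.73 on KO and 11.73 ± 0.61 on WT arrays (SD, n = 5 for both). Its levels were 12.01, 11.83, 10.38, 12.04 and 12.11 on KO 1 to KO 5 and 10.91, 11.35, 12.36, 12.26 and 11.75 on WT 1 to WT 5. The lowest were KO 3 and WT 1, and the spread within each genotype was larger than the difference of -0.06. A fixed batch block turned that difference to 0.53.

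For each member the 3 genes with the most similar pattern over the 10 arrays were found among all genes by Pearson's r. These values describe the same 10 arrays were picked as the highest among all genes, and carry no test. Cacna1d was most like Ryr2 (r = 0.99), the ryanodine receptor of intracellular calcium stores, followed by Efcab1 and Nap1l5 (0.98 each). Without KO 1 and KO 2, its 2 arrays farthest from the median, r with Ryr2 was 0.98. Kcnk3 was most like Gm2a (0.98, and 0.96 without KO 2 and KO 4), Rundc1 (0.97) and Hes6 (0.96). Cacna1h was most like Atp8b2, Polr1a and Lama1 (0.96 each), and Clcn2 like Tacr2 (0.97), Cx3cr1 (0.96) and Prdx3 (0.95). Kcnk9 was most like Cpm and Cbfa2t3 (0.96 each) and Smad7 (0.95), Atp2b3 like 2410002F23Rik, Smyd4 and Tmem269 (0.96 each), and Atp1b1 like Ago2, Synrg (0.92 each) and Usp27x (0.91). Without the 2 arrays farthest from the member's median, r with 2410002F23Rik was 0.77, with Smyd4 0.89 and with Tmem269 0.84 for Atp2b3, and with Ago2 0.88, Synrg 0.83 and Usp27x 0.79 for Atp1b1. For Cacna1h, Clcn2 and Kcnk9 the lowest such r was 0.89, 0.87 and 0.84. Kcnk2 was most like Syt11 (0.96), Cadps and Epb41l3 (0.95 each). Without KO 1 and WT 4 these were 0.77, 0.80 and 0.83. Kcnj5 was most like Camp (0.93), Oit1 (0.91) and Mir125b-2 (0.90). Without KO 4 and WT 5 these were 0.67, 0.92 and 0.48, so the likeness to Camp and Mir125b-2 rests on those arrays. Of the genes named here, Efcab1 (mean level 5.63), Tmem269 (5.93), Camp (6.37), Oit1 (6.05) and Mir125b-2 (3.80) had weak signals. They lay below 6.48, the level that 95% of the olfactory receptor genes did not exceed.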

How the data were processed

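The authors deposited log2 expression levels made with RMA (named in the submitters' processing notes), which corrects background, normalises arrays by quantiles and summarises the probes of a transcript. Software version, filters and any batch correction: not given in the sources used here. Of 35557 rows, 25689 hold values. From these, 25 probes numbered below the first annotated probe were left out, taken to be array controls. The remaining 25664 probes lay between 2.75 and 14.64, with array medians of 7.17 to 7.25. Gene names came from the platform annotation, matched by Entrez ID to RefSeq (GRCm38.p6, 19584 of 19661 genes, 0 symbols changed). Of the probes 20777 had 1 symbol, 232 several and 4655 none, and a gene was represented by its brightest single-symbol probe.

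KO and WT were compared over all probes by limma 3.58.1 (R 4.3.3), using lmFit and two-sided eBayes tests with genotype as the only term over 10 arrays, with Benjamini-Hochberg adjustment and a threshold of 0.05, and single members by exact permutation, enumerating the 252 ways to choose 5 arrays. The analysis was tested on simulated data. Precision is limited by the number of arrays. Mice are numbered in the labels, so arrays were taken as separate animals. The members and the gene lists were chosen with earlier results of these data known. Genes were named by rule: all members, Crem, 2 genes with the smallest p per channel or pathway list where none passed, the 3 genes most like each member, and the defining markers Cyp11b2, Cyp11b1, Th, Ucp1, Adipoq and Alb. Outside this rule, Fxyd6 and the pancreas markers Cela2a, Prss2 and Cpb1 were also named. Alternatives were batch as a fixed or random block (consensus correlation 0.172), fits within batches 1 (2 KO, 1 WT) and 3 (1 KO, 3 WT), where the lone array is assumed to vary like the others, a median shift, repeated quantile normalisation, brighter probes only, eBayes with trend and robust, averaging a gene's probes (each member has 1, so its values are identical), and leaving out arrays. Leaving out KO 2, KO 5 and WT 3 was chosen after seeing the data. Figures were drawn with matplotlib 3.10.9.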

Additional observations from a re-analysis of the deposited data

Results flagged for a closer look

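In 18 groups of 5 arrays (9 genes in KO and in WT), 2 held an array whose gap to its nearest neighbour was large against the range of its group. Chance gives about 1 in 20 such groups if the groups are independent. These groups share the same arrays, and 32 of 36 member pairs had a positive r, so that rate cannot be set against the 2 found. Kcnk2 on KO 1 was 7.57, with the next KO array at 8.84. Kcnj5 on KO 4 was 6.64, with the next KO array at 6.15.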

How the results depend on the processing

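No setting gave any of the analysed probes an adjusted p under 0.05. Of 162 comparisons of a member under a setting that can move its difference 16 turned direction, and the lowest adjusted p was 0.365. A further 26 (eBayes with trend and robust, brighter probes, averaged probes) keep the difference by construction. Before adjustment 878 probes had a p under 0.05, and this count became 1843 with batch as a fixed block, 224 within batch 1, 264 within batch 3, 402 among the brighter 12832 probes, and 3126 without KO 2, KO 5 and WT 3 (chosen after seeing the data). Leaving out 1 array gave 503 (WT 5) to 1462 (KO 4), with 551 without WT 2 and 1408 without WT 3. The cause of these shifts was not tested. The count of 402 is out of 12832 probes and the other counts are out of 25664, and the fits within a batch use fewer arrays. Members at that level numbered 1, Cacna1h. The count was also 1 with batch as a fixed block and within batch 1, but the gene was then Kcnk3 and not Cacna1h. It became 2 within batch 3 (Kcnk2 and Atp1b1), 0 without KO 1 and KO 3, and 3 without KO 2, KO 5 and WT 3 (Cacna1h, Atp1b1 and Atp2b3). With 1 array left out they numbered 1 to 2 (Cacna1h each time, joined by Atp1b1 without KO 2, Kcnk3 without KO 4 and Atp2b3 without KO 5). Exact permutation was run on the members alone, so it has no share over all probes beside it. By this test 1 member had p under 0.05, and 0 without KO 1 and KO 3. With 1 array left out this was 0 (without WT 2 or WT 5) to 2 (without KO 2, KO 4 or KO 5). Cacna1h stayed between -0.75 and -0.49 when 1 array was left out.

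Differences that turned direction were near 0 in most cases. Kcnk9 became 0.0134 without KO 1 and KO 3. Kcnj5 became -0.0376 with batch as a fixed block, -0.10 within batch 1 and -0.0215 after repeated quantile normalisation, and ranged from -0.0811 (KO 4) to 0.0774 (KO 3) with 1 array left out. Cacna1d became 0.0779 with a fixed block, 0.0105 with a random block, 0.12 within batch 1, 0.0406 within batch 3 and 0.21 without KO 1 and KO 3, and ranged from -0.20 (KO 2) to 0.14 (KO 1) with 1 array left out. Within batch 3, Atp2b3 became 0.0180 and Clcn2 0.10. The cause was not tested. No paired analysis was possible because the labels give the 2 groups no shared animal numbers, and replicate numbers here follow the order of the samples. Background correction could not be repeated on RMA values and was not run.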
